A study of Mus musculus with 8 samples.

Results

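The 41 genes described here encode the working parts of the lysosome: 12 proteases (10 cathepsins, legumain and tripeptidyl peptidase 1), 7 glycosidases, 4 enzymes and activators of lipid breakdown, 4 membrane proteins, 2 regulators and 12 subunits of the proton pump. They were chosen by symbol from the 17823 genes of the deposited count table. All 41 are listed there, and all 41 are among the 12610 genes that passed the filter on low counts.

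The study sequenced polyadenylated RNA of C57BL/6 bone-marrow-derived macrophages, which were cultured for 7 days with 20 ng of M-CSF, the macrophage growth factor, and then received 1 µg/ml of LPS, a glycolipid from the outer membrane of bacteria to which macrophages respond. The cells fall into 2 groups by a red fluorescent reporter of the cytokine gene Il19: Il19-tdT positive and Il19-tdT negative, with 4 libraries each, numbered 1 to 4 in both. Both groups thus share the strain, M-CSF and LPS, and no untreated cells are among the samples. The sources used here do not give the construction of the reporter, the way the cells were separated, the hours of LPS exposure or the age of the mice.

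Lysosomes are acidic compartments in which proteins, sugar chains and lipids taken up from outside or delivered by autophagy are broken down. The acid is supplied by the vacuolar proton pump, whose V1 sector in the cytosol splits ATP and whose V0 sector in the membrane passes the protons. Transcription factors of the MiT/TFE family, Tfeb among them, are known to drive many of these genes together through a short promoter element that contains the E-box CACGTG. Macrophages carry large amounts of lysosomal enzymes, since they digest what they engulf.

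That element can be read in the promoters of the genes described here. RefSeq promoter windows, from 250 bases before to 50 bases after each start in GRCm38.p6, were matched for 35 of the 41 genes, in 42 windows. The 8-base palindrome TCACGTGA, searched on both strands, was present in 7 of these windows (16.7%), against 0.974% of all 32851 windows in the table. The shorter palindrome CACGTG, which every TCACGTGA contains, was present in 14 (33.3%), against 7.15% of all. The 7 genes with the longer form are Ctsd, Ctsa, Gla, Mcoln1, Atp6v1a, Atp6v0d1 and Atp6v0e, which span proteases, a glycosidase, a channel and both sectors of the pump. Windows of 60 bases are printed 5′ to 3′ on the strand of the gene, with TCACGTGA or CACGTG in capitals. The first 6 show how the element recurs across roles, with 2 copies of the longer form in Gla and 4 of the shorter in Lamp1. Ctsa has 2 copies of the longer form as well, of which the printed stretch holds the first, since the other begins past the start, at position 4. The last 3 belong to the genes that passed a test below. Neither form occurs in them, as in 21 of the 35 matched genes.
Ctsd: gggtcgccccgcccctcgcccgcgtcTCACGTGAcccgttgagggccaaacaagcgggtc
Ctsa: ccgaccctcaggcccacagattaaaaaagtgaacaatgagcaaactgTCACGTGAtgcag
Gla: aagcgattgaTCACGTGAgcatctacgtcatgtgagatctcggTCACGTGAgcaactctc
Mcoln1: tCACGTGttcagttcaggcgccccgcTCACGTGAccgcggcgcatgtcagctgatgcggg
Lamp1: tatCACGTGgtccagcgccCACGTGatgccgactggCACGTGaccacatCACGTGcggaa
Atp6v1a: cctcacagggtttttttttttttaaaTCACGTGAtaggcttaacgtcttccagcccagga
Atp6v0a1: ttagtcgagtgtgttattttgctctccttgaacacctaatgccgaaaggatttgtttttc
Lipa: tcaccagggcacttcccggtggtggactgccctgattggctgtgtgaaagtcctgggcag
Hexa: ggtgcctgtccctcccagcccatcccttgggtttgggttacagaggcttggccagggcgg
These windows lie at chr7:142387893-142387952 (Ctsd, minus strand), chr2:164833713-164833772 (Ctsa, plus strand), chrX:134601184-134601243 (Gla, minus strand) and chr8:3500447-3500506 (Mcoln1, plus strand). The others are chr8:13159097-13159156 (Lamp1, plus strand), chr16:44139358-44139417 (Atp6v1a, minus strand), chr11:101010338-101010397 (Atp6v0a1, plus strand), chr19:34527475-34527534 (Lipa, minus strand) and chr9:59539480-59539539 (Hexa, plus strand). A match describes letters in the window and not a bound factor. The 7 genes with TCACGTGA had a median log2 fold change of -0.07 between the groups and the 28 matched genes without it a median of -0.02.

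The libraries held between 49850537 and 58516454 counts. Il19 reached 145 to 234 CPM (counts scaled to a common library size, with factors from the trimmed mean of M values, TMM) in the tdT-positive libraries and 9.17 to 16.98 CPM in the tdT-negative ones, in the direction of the labels. The macrophage markers Adgre1, Csf1r, Itgam and Lyz2 were abundant in every library, and the 9 macrophage markers together summed to 14282 to 18517 CPM in tdT-positive and 12032 to 21564 CPM in tdT-negative libraries. When the model also held the replicate number, 2 of these 9 genes were called higher in tdT-positive libraries and 0 lower. That is 22.2%, against 8.03% of all genes called higher (edgeR, adjusted p under 0.05). Sums of the fibroblast, neutrophil and dendritic cell markers were lower in every tdT-positive library than in any tdT-negative one. Those of the monocyte markers overlapped between the groups, with the tdT-positive library the lower in each number. The 8 fibroblast markers summed to 48.2 to 121 CPM in tdT-positive against 199 to 2018 CPM in tdT-negative libraries, the 8 neutrophil markers to 3.47 to 7.78 against 14.95 to 276 CPM, the 7 monocyte markers to 188 to 494 against 332 to 588 CPM, and the 7 dendritic cell markers to 5.31 to 9.88 against 20.3 to 33.8 CPM. Elane and Prtn3 of the neutrophil list were at 0 in all tdT-positive libraries, as were Fcer1a of the mast cell list and Cd3e and Nkg7 of the lymphocyte list. The mast cell markers were low in both groups, with sums of 0.978 to 2.62 against 1.04 to 5.51 CPM. The lymphocyte markers summed to 0.0172 to 0.0817 against 0.0372 to 0.134 CPM, and 0 of them passed the filter. Zeros in the mast cell and lymphocyte lists thus do not set the groups apart. The 9 osteoclast markers, of which Ctsk, Acp5 and Atp6v0d2 are themselves lysosomal, stood at 2862 CPM in tdT-negative replicate 4 whereas the remaining tdT-negative libraries had 109 to 257 CPM and the tdT-positive libraries 128 to 327 CPM. In tdT-positive replicate 3, 12.3% of the counts belonged to the ribosomal RNA gene Rn45s, against 0.302% to 0.734% elsewhere. The part of these differences in the results below was not tested, and in bulk RNA fewer cells of a type and less RNA per cell cannot be told apart.

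Lysosomal genes were among the most abundant transcripts of these macrophages in both groups. Together the 41 genes took up between 2.25% and 2.90% of the counts in each library, and their summed level was 27834 ± 1618 CPM (SD, n = 4) in tdT-positive and 27259 ± 2355 CPM (SD, n = 4) in tdT-negative libraries. The lowest share was that of tdT-positive replicate 3, the library rich in Rn45s, and the next lowest was 2.58%. Per kilobase of the gene length in the table (RPKM, over all 8 libraries), 29 of the 41 lay in the top 10% of the genes tested, and their median percentile was 95.4. Ctsd, the aspartic protease cathepsin D, led with 1605 RPKM, followed by the cysteine proteases Ctsb (1064 RPKM) and Ctsz (1036 RPKM), the granulin precursor Grn (922 RPKM), Ctss (889 RPKM) and the saposin precursor Psap (869 RPKM). At the other end stood the cathepsin Ctsf at 2.30 RPKM, Tfeb at 6.49 RPKM and the beta-mannosidase Manba at 7.52 RPKM.

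**Figure D1:**
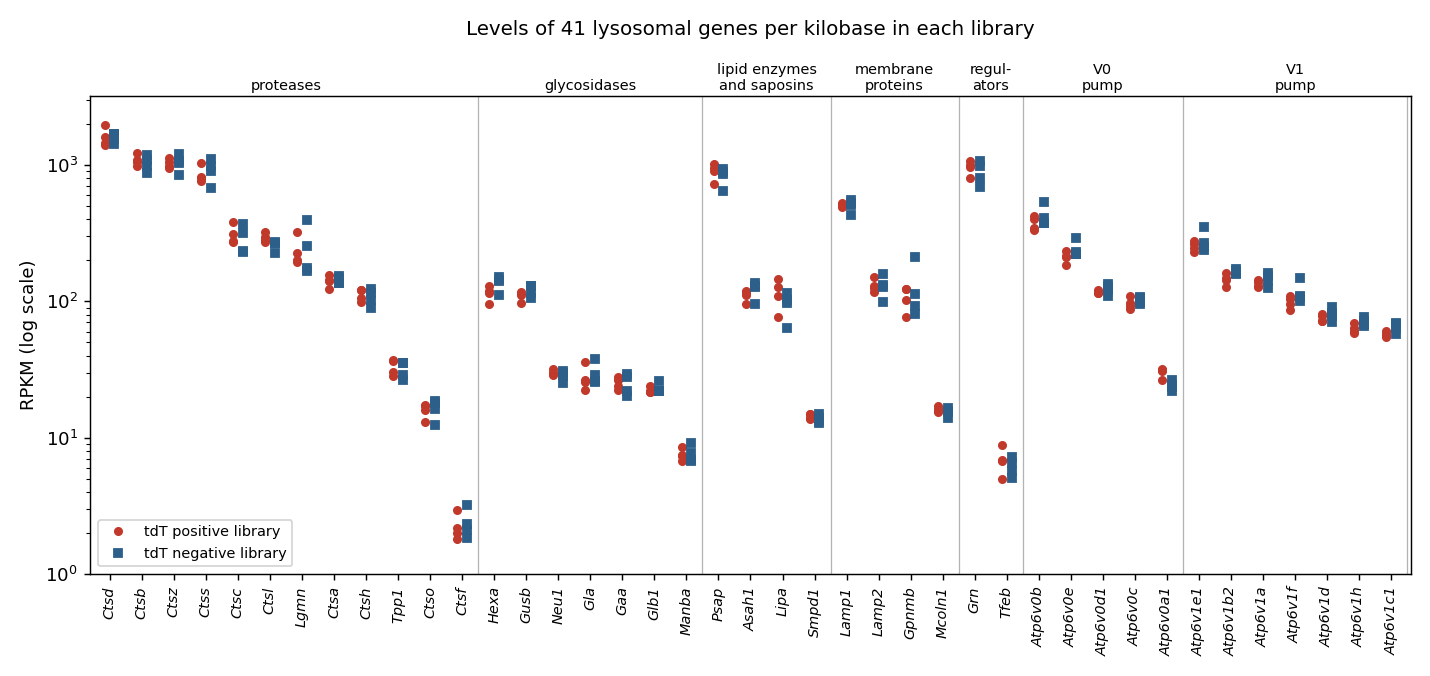
Level of each of the 41 genes in each library, as RPKM on a log scale, ordered by role and by mean level within a role. Red circles are tdT-positive and blue squares tdT-negative libraries; Ctsd tops the plot at a mean of 1605 RPKM and Ctsf lies lowest at 2.30 RPKM, and for nearly all genes the points of both groups lie over each other.

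The comparison of the groups asks which of these genes differ between the Il19-tdT positive and the Il19-tdT negative libraries. With the group as the only term of the model, 0 of the 41 genes passed an adjusted p of 0.05 (edgeR quasi-likelihood test, Benjamini-Hochberg over 12610 genes), where 3 genes in all, 0.0238%, did (0.00793% higher and 0.0159% lower). At an unadjusted p of 0.05, 1 of the 41 passed, Atp6v0a1, against 16.3% of all genes. The DESeq2 Wald test without the block called that gene alone of the 41, where it called 921 of all 12610 genes. Limma voom without the block called 0 of the 41 and 3 of all genes. With the replicate number added as a block, Atp6v0a1 and Lipa rose and Hexa fell in the tdT-positive libraries. These 3 of 41 genes are 7.32%, below the background of 15.8% of all genes called by the same fit (8.03% higher and 7.81% lower). Leaving out the libraries of a number changed both counts. Without number 4, which includes the library rich in osteoclast markers, 4 of the 41 passed (9.76%) against 20.2% of all genes. Without number 3, which includes the library rich in Rn45s, 0 passed against 2.8% of all genes, without number 2 likewise 0 against 2.76%, and without number 1 there was 1 (2.44%) against 7.99%.

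Most of the genes lay close to equality. The median log2 fold change, tdT positive over tdT negative, was -0.03 for the 41 genes and -0.00024 for all genes tested, and -0.02 and 0.0051 in the blocked fit. Of the 41, 24 had a fold change below 0, a share to be read against 50.1% of all genes. With library totals in place of TMM, 31 of the 41 and 7970 of the 12610 genes were below 0, and the medians moved to -0.11 and -0.08. The 95% interval lay within a 1.5-fold change in either direction for 37 of the 41 genes, the exceptions being Ctsf, Lgmn, Lipa and Gpnmb, and for all 41 in the blocked fit. The groups did not overlap for 2 genes, Ctsl and Atp6v0a1, both higher in tdT-positive libraries (background 5.46% of all genes), and for 0 genes in the other direction (background 5.92%). Within the replicate numbers, 6 of the 41 genes were higher in the tdT-positive library of all 4 numbers (background 21.9%) and 9 were lower in all 4 (background 19.6%).

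**Figure D2:**
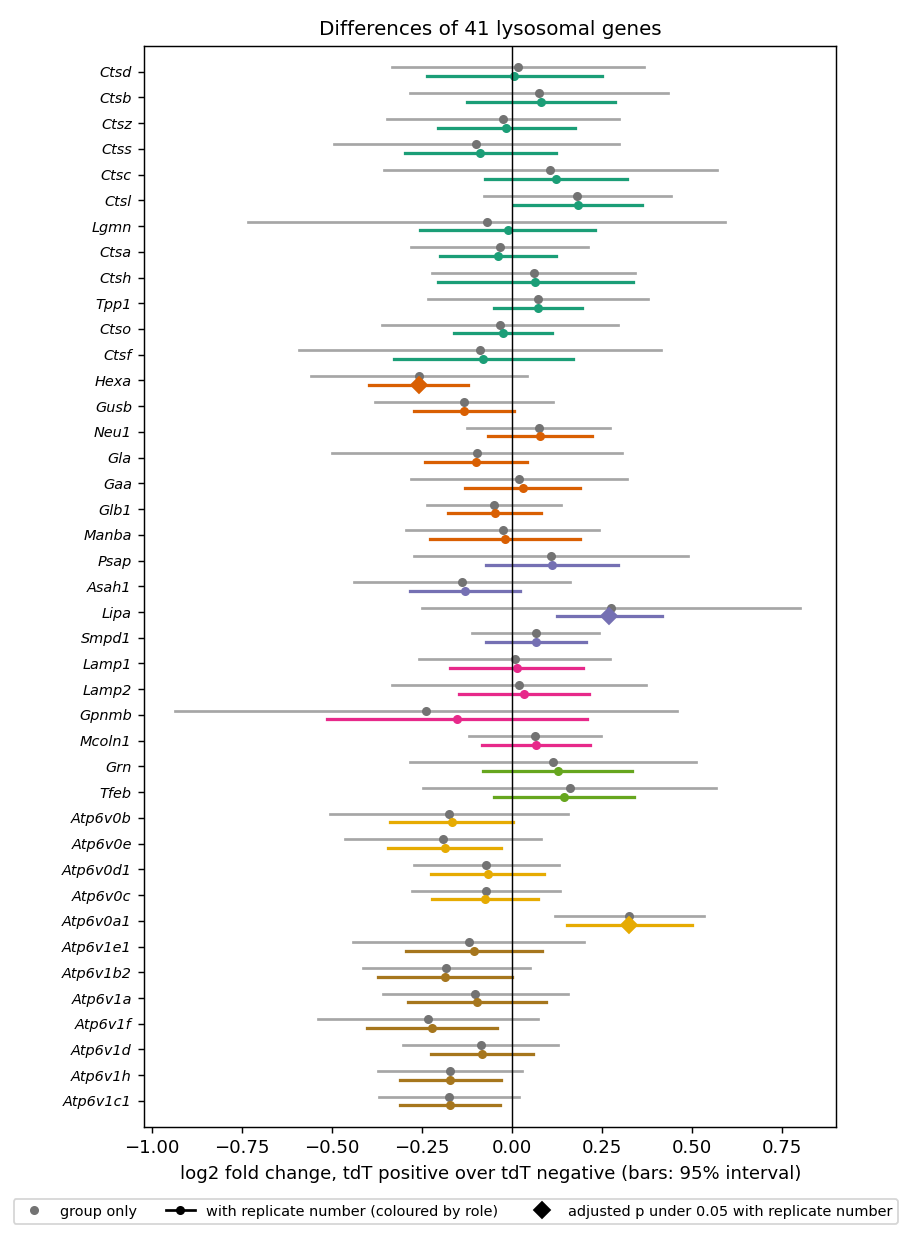
Log2 fold change of each gene, tdT positive over tdT negative, with bars for the 95% interval; grey points come from the fit with the group alone and coloured points, by role, from the fit with the replicate number. Diamonds mark the 3 genes with an adjusted p under 0.05 in the latter fit, Hexa at -0.26, Lipa at 0.27 and Atp6v0a1 at 0.33.

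None of the 12 proteases passed in either edgeR fit, and 6 had a fold change above 0 and 6 below, with a median of -0.0035. Ctsd stood at 2761, 3171, 2833 and 3852 CPM in tdT-positive replicates 1 to 4. In the tdT-negative replicates it stood at 2809, 3297, 3293 and 3068 CPM. The highest and the lowest library were both tdT positive, and the log2 fold change was 0.02 ± 0.15 (SE, edgeR quasi-likelihood, Benjamini-Hochberg adjusted p = 0.975), a sign that turned under other scalings.

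Ctsl, cathepsin L, a cysteine endopeptidase, had the widest difference of the proteases. It reached 1130, 1048, 965 and 995 CPM in tdT-positive replicates 1 to 4 against 947, 960, 941 and 800 CPM in the tdT-negative ones. Every tdT-positive library lay above every tdT-negative one, though by a small margin between 960 and 965 CPM, and tdT-negative replicate 4 stood apart from its group. The log2 fold change of 0.18 ± 0.11 (SE) did not pass the edgeR quasi-likelihood test with Benjamini-Hochberg adjustment, at adjusted p = 0.496 and, with the block, 0.144.

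The other proteases had log2 fold changes from -0.10 for Ctss, a cathepsin that trims the invariant chain in antigen presentation, to 0.11 for Ctsc, which activates granule serine proteases. Legumain (Lgmn), an asparaginyl endopeptidase, varied more between replicate numbers than any other protease. It ranged from 366 to 607 CPM in tdT-positive and from 314 to 741 CPM in tdT-negative libraries, and the library of number 1 was the highest in both groups. Number 1 had the highest mean level for 9 of the 12 proteases, as it had for 22.8% of all genes tested, a share that was not tested.

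The 7 glycosidases are enzymes that remove sugars from glycoproteins and glycolipids. In the blocked fit 1 fell and 6 did not pass, 14.3% against 15.8% of all genes (7.81% lower). Without the block 0 passed, and the median log2 fold change was -0.05. Hexa, the alpha subunit of beta-hexosaminidase, which degrades the ganglioside GM2, is the gene that fell (Entrez 15211, chromosome 9, 59539540 to 59565109 of GRCm38). It stood at 177, 223, 213 and 242 CPM in tdT-positive replicates 1 to 4. In the tdT-negative replicates it stood at 209, 261, 269 and 284 CPM, so that each tdT-positive library lay below the tdT-negative one of its number while the groups overlapped. In the blocked fit the log2 fold change was -0.26 ± 0.06 (SE) (edgeR quasi-likelihood, Benjamini-Hochberg adjusted p = 0.0290) and -0.26 ± 0.13 (SE) without the block (adjusted p = 0.385). The blocked call was lost without number 1 (adjusted p = 0.100), number 2 (0.101) or number 3 (0.0688).

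Hexa is the most abundant of the glycosidases per kilobase, at 126 RPKM. Gusb, beta-glucuronidase, had a log2 fold change of -0.13 and was lower in all 4 numbers without passing (edgeR, Benjamini-Hochberg adjusted p = 0.168 with the block). Neu1, a sialidase, and Gaa, which breaks down glycogen, were the 2 with fold changes above 0, at 0.07 and 0.02, of which 1 remained above 0 with library totals or upper-quartile factors. Gla, Glb1 and Manba, which remove galactose and mannose, lay at -0.10, -0.05 and -0.02. Hexa overlaps Tmem202 and Glb1 overlaps Tmppe in the annotation, and without a stated strand setting their reads cannot be told apart. Tmem202 held on average 159 counts per library beside 13100 for Hexa, but Tmppe held 2444 beside 3117 for Glb1. The same limit holds in other roles, as for Ctsa, which overlaps Pltp (13280 counts beside 28568 for Ctsa), and Asah1, which overlaps Frg1 (1488 beside 14441).

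Of the 4 genes for lipid breakdown, 1 rose and 3 did not pass in the blocked fit, 25% against 15.8% of all genes (8.03% higher). Without the block 0 passed, and the median log2 fold change was 0.09. The gene that rose is Lipa, the acid lipase that frees cholesterol and fatty acids from lipoproteins (Entrez 16889, chromosome 19, 34492316 to 34527474 of GRCm38). It stood at 326, 378, 228 and 436 CPM in tdT-positive replicates 1 to 4 and at 289, 307, 191 and 344 CPM in their tdT-negative counterparts. The replicate numbers kept the same order in both groups, with number 3 lowest and number 4 highest, and each tdT-positive library lay above the tdT-negative one. Lipa had a log2 fold change of 0.27 ± 0.06 (SE) in the blocked fit (edgeR quasi-likelihood, Benjamini-Hochberg adjusted p = 0.0302) and 0.28 ± 0.23 (SE) without the block (adjusted p = 0.626). The blocked call was lost without number 1 (adjusted p = 0.0685), number 2 (0.131) or number 3 (0.0693), and with library totals in place of TMM (0.0891).

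Psap, the precursor of the saposins that present lipids to their hydrolases, is the most abundant of these 4. Its level was 2479, 2603, 2000 and 2782 CPM in tdT-positive replicates 1 to 4 and 2438, 2553, 1778 and 2377 CPM in the tdT-negative ones. It was higher in the tdT-positive library of every number, but the groups overlapped over most of their range. The log2 fold change of 0.11 ± 0.17 (SE) did not pass in edgeR (quasi-likelihood, Benjamini-Hochberg adjusted p = 0.820, and 0.356 with the block). The acid ceramidase gene Asah1 had a log2 fold change of -0.14 and the acid sphingomyelinase gene Smpd1 of 0.07, and neither passed.

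None of the 4 membrane proteins passed. Lamp1, a heavily glycosylated protein that lines the lysosomal membrane, was measured at 1131, 1110, 1183 and 1118 CPM in tdT-positive replicates 1 to 4. The tdT-negative replicates had 1132, 1178, 1241 and 967 CPM. All 4 tdT-positive libraries fell inside the range of the tdT-negative ones, and the log2 fold change was 0.0077 ± 0.12 (SE, edgeR quasi-likelihood, Benjamini-Hochberg adjusted p = 0.985), with a sign that turned under other scalings. Its close relative Lamp2 lay at 0.02 and the calcium channel gene Mcoln1 at 0.07.

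Gpnmb, a transmembrane glycoprotein of lysosomes and melanosomes, showed the widest spread of the 41 genes between replicate numbers. It had 465, 389, 291 and 468 CPM in tdT-positive replicates 1 to 4 and 433, 352, 305 and 811 CPM in tdT-negative replicates. The highest value was that of tdT-negative replicate 4, the library with the high osteoclast markers. The log2 fold change was -0.24 ± 0.31 (SE, edgeR quasi-likelihood, Benjamini-Hochberg adjusted p = 0.778) with that library and 0.15 without it, and in the blocked fit -0.15 with number 4 and 0.07 without it.

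The regulators gave values above 0 without passing. Grn, whose product progranulin is cut into granulins in the lysosome and is needed for its function, had 2502, 2248, 2331 and 1868 CPM in tdT-positive replicates 1 to 4 and 2495, 2289, 1873 and 1611 CPM in the tdT-negative ones. Its groups overlapped, with number 4 the lowest in both. Tfeb had 19.5, 19.2, 24.8 and 14.0 CPM in tdT-positive and 16.0, 18.5, 20.3 and 14.4 CPM in tdT-negative replicates. Both genes had the same pattern of a small excess over a wide spread, with log2 fold changes of 0.11 ± 0.18 (SE) for Grn and 0.16 ± 0.18 (SE) for Tfeb (edgeR quasi-likelihood, Benjamini-Hochberg adjusted p = 0.820 and 0.732).

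**Figure D3:**
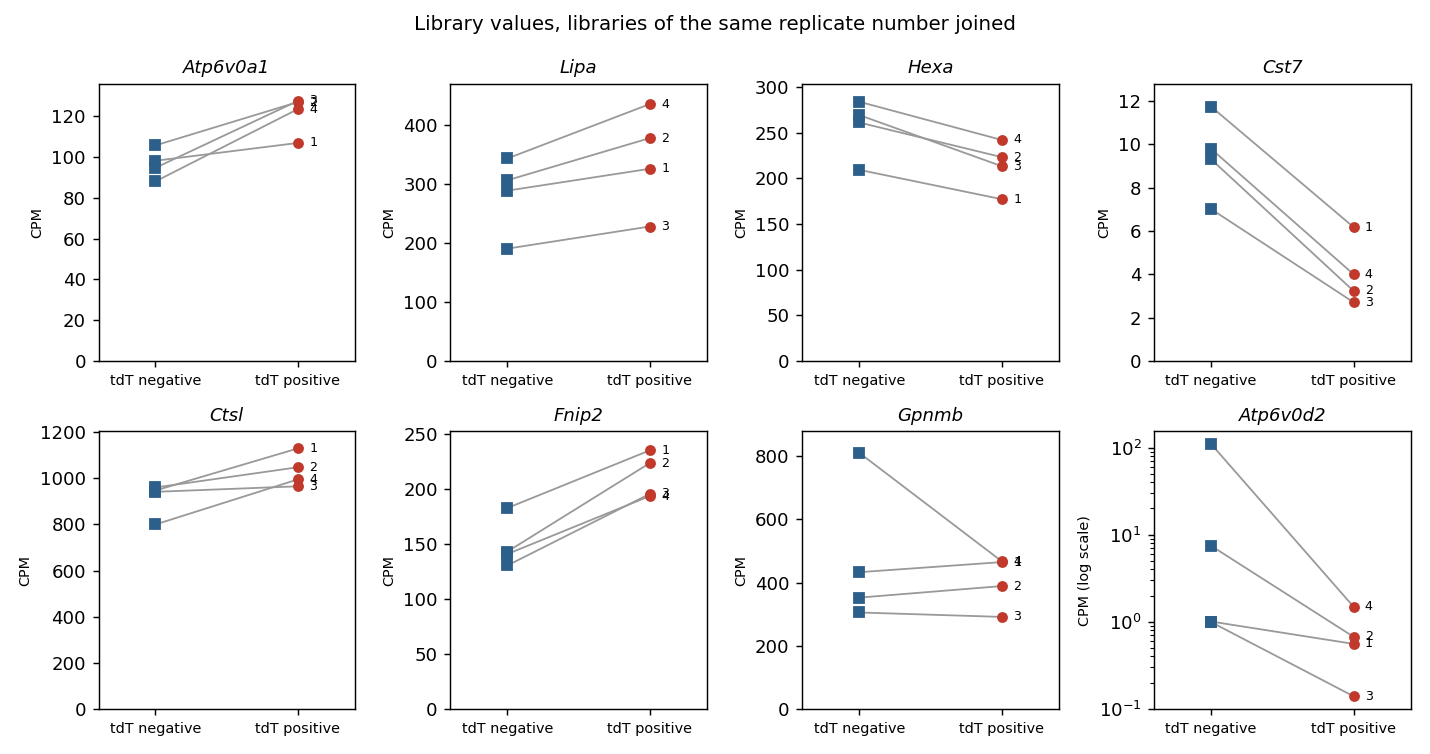
CPM of 8 lysosomal genes in each library, with the tdT-negative (blue square) and tdT-positive (red circle) libraries of the same replicate number joined and the number written beside the latter; the axes start at 0 except for Atp6v0d2, which is on a log scale. Lines slope up in all 4 numbers for Atp6v0a1, Lipa, Ctsl and Fnip2 and down for Hexa, Cst7 and Atp6v0d2, and Gpnmb turns on number 4.

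The proton pump genes divided into a single V0 gene that rose in the blocked fit and 11 genes with values a little below 0. That 1 of 12 is 8.33%, against 15.8% of all genes. Of the 12 subunits, 11 had a log2 fold change below 0 under every scaling, with and without the block, where 50.1% of all genes did with TMM. The median was -0.07 for the 5 V0 genes and -0.17 for the 7 V1 genes. None of the 11 passed the edgeR quasi-likelihood test with Benjamini-Hochberg adjustment in either fit. The shares of genes below 0 were not tested, since the subunits were chosen together and share libraries.

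Atp6v0a1, a form of the V0 a subunit, through which protons enter and leave the membrane ring, is the gene that rose (Entrez 11975, chromosome 11, 101009422 to 101063719 of GRCm38). It stood at 107, 127, 127 and 123 CPM in tdT-positive replicates 1 to 4. In the tdT-negative replicates it stood at 98.2, 106, 94.7 and 88.0 CPM, and the groups did not overlap, with the margin between 106 and 107 CPM. Its log2 fold change was 0.33 ± 0.07 (SE) in the blocked fit (edgeR quasi-likelihood, Benjamini-Hochberg adjusted p = 0.0290) and 0.33 ± 0.09 (SE) without the block (adjusted p = 0.122). The blocked call was lost without number 2 (adjusted p = 0.100) or number 3 (0.0872), and the DESeq2 Wald test without the block gave an adjusted p of 0.0148.

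The a subunit has other forms, and Atp6v0a1 is a minor one in these cells. Tcirg1, the a3 form, made up 81.4% ± 2.29 (SD, n = 4) of the summed RPKM of Atp6v0a1, Atp6v0a2 and Tcirg1 in tdT-positive and 82.2% ± 1.97 (SD, n = 4) in tdT-negative libraries. Atp6v0a1 made up 11.1% ± 1.69 and 9.93% ± 1.18 (SD, n = 4). The share of Atp6v0a1 was higher in the tdT-positive library of numbers 2, 3 and 4 and lower in number 1, and the groups overlapped, at 8.79% to 12.5% against 8.59% to 11.02%. Tcirg1 had a log2 fold change of 0.15, which did not pass (edgeR, Benjamini-Hochberg adjusted p = 0.618, and 0.168 with the block).

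Atp6v0b, a proteolipid of the membrane ring, is the most abundant V0 gene per kilobase, at 400 RPKM. It had 401, 331, 420 and 345 CPM in tdT-positive replicates 1 to 4 and 409, 377, 531 and 373 CPM in tdT-negative replicates. The tdT-positive library was the lower in each number, by least in number 1 and by most in number 3. The log2 fold change of -0.18 ± 0.15 (SE) did not pass (edgeR quasi-likelihood, Benjamini-Hochberg adjusted p = 0.622, and 0.159 with the block). Atp6v0e, a small membrane subunit, lay at -0.19, and Atp6v0c, the other ring proteolipid, and Atp6v0d1, which couples the ring to V1, both lay at -0.07.

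In the V1 sector, Atp6v1e1, a subunit of the peripheral stalk, is the most abundant gene per kilobase, at 267 RPKM. It had 316, 280, 337 and 299 CPM in tdT-positive replicates 1 to 4 and 322, 304, 427 and 285 CPM in the tdT-negative ones. Its difference came mostly from tdT-negative replicate 3: the log2 fold change was -0.12 ± 0.14 (SE, edgeR quasi-likelihood, Benjamini-Hochberg adjusted p = 0.749) with that library and 0.02 without it. Atp6v1f, a subunit of the central rotor, showed the widest difference of the sector, with 65.6, 54.7, 69.9 and 60.6 CPM in tdT-positive and 69.1, 68.4, 93.6 and 63.7 CPM in tdT-negative replicates. Again number 3 held the highest library of each group, and the tdT-positive library was the lower in each number. Atp6v1f had a log2 fold change of -0.23 ± 0.14 (SE, edgeR quasi-likelihood, Benjamini-Hochberg adjusted p = 0.449), and the blocked fit gave an adjusted p of 0.0923, or 0.0481 without number 4.

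Atp6v1a and Atp6v1b2, whose products alternate in the ATP-binding head, had log2 fold changes of -0.10 and -0.18. Atp6v1c1 and Atp6v1h, subunits that regulate the joining of V1 to V0, both lay at -0.17, and Atp6v1d, part of the rotor, at -0.09. Atp6v1c1 and Atp6v1h were each lower in all 4 numbers, and their adjusted p in the blocked edgeR fit (Benjamini-Hochberg) was 0.0908 and 0.0951. Summed over the 7 V1 genes, the level was 1718, 1622, 1712 and 1588 CPM in tdT-positive replicates 1 to 4 and 1838, 1722, 1868 and 1887 CPM in the tdT-negative ones. These sums did not overlap between the groups, with the margin between 1718 and 1722 CPM, while the sums over all 12 subunits did, at 2520 to 2770 against 2711 to 3066 CPM. The sums are descriptions of genes chosen together and carry no test.

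**Figure D4:**
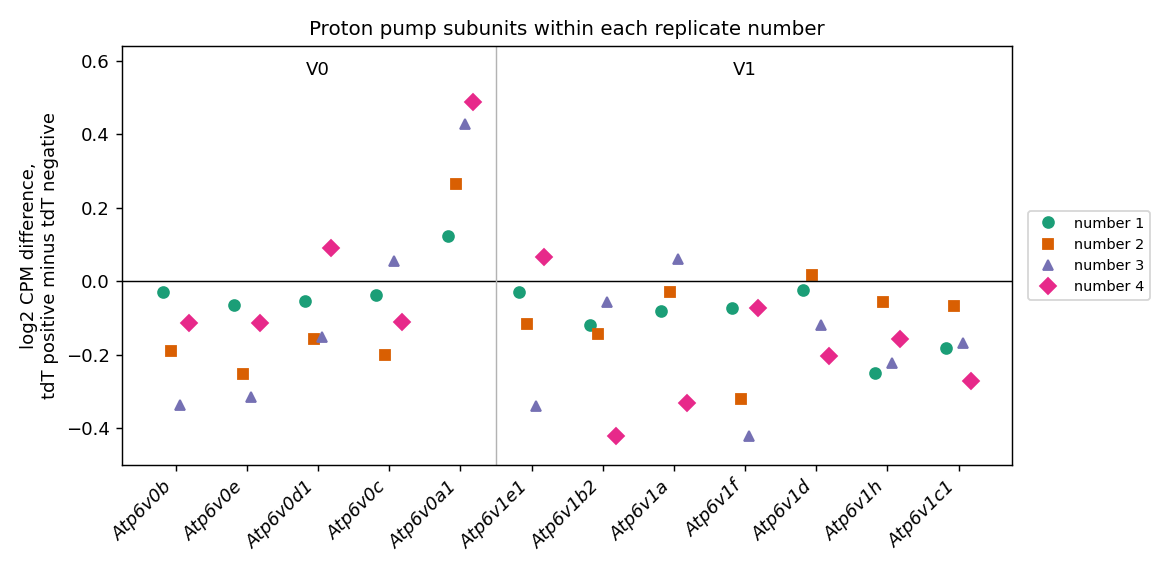
Difference in log2 CPM between the tdT-positive and the tdT-negative library of each replicate number for the 5 V0 and 7 V1 genes. Each marker is a replicate number; Atp6v0a1 lies above 0 in all 4, whereas Atp6v0b, Atp6v0e, Atp6v1b2, Atp6v1f, Atp6v1h and Atp6v1c1 lie below 0 in all 4.

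Within the replicate numbers, the median difference of the proteases was 0.02, -0.02, -0.09 and 0.22 on the log2 scale in numbers 1 to 4, while that of the V1 genes was -0.08, -0.07, -0.17 and -0.20. The proteases thus lay on both sides of 0 and the V1 medians below it in each number. The V0 medians (-0.04, -0.19, -0.15 and -0.11) and those of the glycosidases (-0.03, -0.05, -0.0068 and -0.13) were also below 0 in each number. Those of the lipid genes and the regulators were above it in each. All genes tested had medians of -0.02, 0.0012, -0.0050 and 0.06. These differences were not tested between roles.

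Of 135 other lysosomal genes in the table, 120 were tested, and 10 rose and 4 fell in the blocked fit (11.7%, below the 15.8% of all genes). Without the block 0 passed in the edgeR quasi-likelihood test and 16 had an unadjusted p under 0.05 (13.3%, against 16.3% of all genes). Without the block, limma voom called 0 of the 120 and the DESeq2 Wald test 5, where the latter called 921 of all 12610 genes. Those 5 include Cst7, Flcn, Fnip2 and Gga3. Among 35 other hydrolases, 1 rose and 2 fell in the blocked fit, 8.57% against 15.8% of all genes. Among those that fell was the cathepsin K gene Ctsk (blocked log2 fold change -2.96 ± 0.74 SE, edgeR Benjamini-Hochberg adjusted p = 0.0383). Its level was 324 CPM in tdT-negative replicate 4 and 3.74 to 19.2 CPM in the remaining tdT-negative libraries, against 1.02 to 8.40 CPM in the tdT-positive ones, and without number 4 the fold change was -1.83 (adjusted p = 0.00846). Atp6v0d2, the form of the pump's d subunit known from osteoclasts, followed the same libraries, with 110 CPM in tdT-negative replicate 4, 0.990 to 7.46 CPM in the rest of its group and 0.139 to 1.49 CPM in the tdT-positive ones. It was the only gene called in the blocked fit among 12 other pump and accessory genes, 8.33% against 15.8% of all genes. Its blocked log2 fold change was -4.20 ± 0.84 (SE, edgeR Benjamini-Hochberg adjusted p = 0.0202) and, without number 4, -2.51 (adjusted p = 0.00676). It made up 28.5% of the summed RPKM of the d subunits in tdT-negative replicate 4 and at most 2.28% in any other library. Without number 2 or number 3, neither Ctsk nor Atp6v0d2 passed. Hyal1, a hyaluronidase, was the hydrolase that rose, by 0.36 ± 0.09 (SE) on the log2 scale (edgeR Benjamini-Hochberg adjusted p = 0.0401), a call lost without number 1, 2 or 3 and with library totals or upper-quartile factors.

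Of 28 other membrane proteins and transporters, 4 rose and 0 fell in the blocked fit, 14.3% against 15.8% of all genes (8.03% higher). The channel gene Mcoln2, a relative of Mcoln1, had 98.9, 101, 108 and 157 CPM in tdT-positive and 66.8, 65.7, 95.8 and 99.5 CPM in tdT-negative replicates. Only tdT-positive replicate 1 fell below the highest tdT-negative library, and the log2 fold change was 0.50 ± 0.09 (SE, edgeR Benjamini-Hochberg adjusted p = 0.0139). The amino acid transporter gene Slc36a1 rose by 0.33, Hgsnat, which acetylates heparan sulfate, by 0.31 and Cln3, a membrane protein mutated in Batten disease, by 0.28 on the log2 scale (adjusted p = 0.0126, 0.0236 and 0.0386). Each of these 4 calls was lost without number 2, those of Mcoln2 (adjusted p = 0.0539) and Cln3 (0.124) without number 1, and all but that of Mcoln2 without number 3. With library totals, Hgsnat and Cln3 did not pass either.

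Among 19 genes of nutrient sensing and MiT/TFE factors at the lysosomal surface, 4 rose and 0 fell in the blocked fit, 21.1% against 15.8% of all genes (8.03% higher). The count was 1 or 2 under the other scalings and 1 without number 1, 2 or 3, with 0 lower in each. Without number 4, 3 rose and 2 fell, where that fit called 9.82% of all genes higher and 10.4% lower. Fnip2, a partner of folliculin, had 235, 223, 195 and 193 CPM in tdT-positive and 182, 143, 130 and 141 CPM in tdT-negative replicates. Every tdT-positive library lay above every tdT-negative one, and the blocked log2 fold change was 0.51 ± 0.07 (SE, edgeR quasi-likelihood, Benjamini-Hochberg adjusted p = 0.00941, and 0.0890 without the block). The call of Fnip2 held without each number in turn and under the 3 other scalings of the blocked fit. The gene of folliculin itself, Flcn, rose by 0.36, and the genes of the growth-restraining complex Tsc1 and Tsc2 by 0.22 and 0.23 on the log2 scale (adjusted p = 0.0191, 0.0469 and 0.0480). Those of Tsc1 and Tsc2 did not pass with any other scaling of the blocked fit, and that of Flcn did not with library totals or without number 1, 2 or 3. The Tfeb relatives Tfe3, Mitf and Tfec did not pass, with blocked log2 fold changes of 0.18, -0.07 and 0.01.

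Of 20 genes for delivery to the lysosome, 1 rose in the blocked fit, 5% against 15.8% of all genes. That gene is Gga3, an adaptor that carries mannose 6-phosphate receptors from the Golgi (0.26 ± 0.06 SE on the log2 scale, edgeR Benjamini-Hochberg adjusted p = 0.0240). The call was lost without number 1, 2 or 3 and with library totals. Of 6 cathepsin inhibitors tested, 1 fell in the blocked fit, 16.7% against 15.8% of all genes. This was Cst7, cystatin F, an inhibitor of cysteine cathepsins inside the cell, which had 6.18, 3.23, 2.71 and 4.00 CPM in tdT-positive and 11.7, 9.30, 7.01 and 9.78 CPM in tdT-negative replicates. No tdT-positive library reached the lowest tdT-negative one, and the log2 fold change was -1.27 ± 0.12 (SE, edgeR quasi-likelihood, Benjamini-Hochberg adjusted p = 0.00566, and 0.0626 without the block). The blocked call of Cst7 held without each number in turn and under the 3 other scalings. Apart from the fit without number 4, each of these settings called 1 of 6 inhibitors. Without number 4 the filter passed 8 inhibitors in place of 6. Of these 5 were called, all lower, where that fit called 20.2% of all genes (10.4% lower). That count belongs to a changed set of genes in a single setting and is not read as a result about the inhibitors.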

How the data were processed

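The authors deposited raw, whole-number counts for 17823 genes, of which 8 lack a symbol; STAR and mm10 are named in the submitters' processing notes. The sources used here do not give the counting tool, annotation or strand setting. Each column was assigned by the identifier in a sample's description, and groups came from titles. Per the labels' protocols, a stranded kit was used with 220 ng of total RNA, and sequencing was on a NextSeq 500. Whether a replicate number stands for the same mouse, culture or day is not labelled, and p-values therefore reflect only the spread among these samples, which may be technical.

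Counts were filtered with edgeR 4.0.16 (filterByExpr, minimum count 10, minimum total 15), scaled by TMM (factors 0.865 to 1.15) and compared with its quasi-likelihood test with the group as the only term, in R 4.3.3. P-values were adjusted by Benjamini-Hochberg over 12610 genes with a threshold of 0.05. RPKM is CPM per kilobase of the deposited gene length. The numbers pair the libraries by their values: deviations from the group means correlated by 0.63, 0.28, 0.62 and 0.56 for numbers 1 to 4, all above 0.1. The highest correlations with another number were 0.15, 0.23, -0.04 and 0.23. The cut of 0.1 alone thus does not set the pairs apart, and number 2 is paired least clearly. Each number correlated best with itself, so the fit with the number as a block stands beside each result it changes. That fit called 50.7% of its genes higher with TMM, 41.5% with upper-quartile factors and 29.8% with library totals, which moved the median of all genes by less than 0.1 on the log2 scale.

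Members, lists and roles were chosen with earlier results of these data known. Library values are given for members that passed in a fit, for the most abundant member of each role and for that with the largest fold change; of other lists, up to 4 genes that passed are named, and some items that the rule names are not reported here. Lgmn, Tcirg1, Tfe3, Mitf and Tfec are described beside the rule, after their values were seen. Positions and promoters come from RefSeq on GRCm38.p6. Alternatives used DESeq2 1.42.0 and limma 3.58.1. The scripts were tested on simulated data.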

Additional observations from a re-analysis of the deposited data

Results flagged for a closer look

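In 3 of the 82 sets of 4 libraries that the 41 genes give, 3.66%, a single library stood apart, by a gap to the nearest of the others larger than 0.829 of the whole range; chance gives about 1 in 20. Ctsl had 800 CPM in tdT-negative replicate 4, where the next tdT-negative library had 941 CPM. Glb1 had 64.5 CPM in that library, where the next had 55.0 CPM. Atp6v0e had 232 CPM in tdT-negative replicate 3, where the next had 185 CPM.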

How the results depend on the processing

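Without the replicate block, 3 genes were called in all and 0 of the 41. With it the counts were 1998 and 3 with TMM, 1418 and 2 with library totals, 1990 and 3 with DESeq2 size factors and, added after the data were seen, 1989 and 4 with upper-quartile factors (Atp6v1h, lower, besides the 3) and 2144 and 3 with limma voom. Unblocked, no filter called 216 genes and the DESeq2 Wald test 921, with 0 and 1 of the 41. Leaving out a library without the block gave 2 to 456 genes and 0 of the 41, with 456 without tdT-negative replicate 1 and 225 without tdT-negative replicate 4. Leaving out a number in the blocked fit gave 347 to 2535 genes and 0 to 4 of the 41, with 1023 genes without number 1 and 355 without number 3. Library totals moved the median log2 fold change of the 41 genes to -0.11 (-0.10 with the block), of glycosidases to -0.13 (-0.13), of lipid genes to 0.013 (0.012), of V0 genes to -0.15 (-0.15) and of V1 genes to -0.25 (-0.25). Leaving out a library gave medians of -0.087 to 0.0097 for glycosidases and 0.020 to 0.14 for lipid genes. The sign turned for Ctsd with library totals (-0.050, blocked -0.070), with upper-quartile factors (-0.019, blocked -0.027) and when a library was left out (-0.096 to 0.080, blocked -0.087 to 0.075). For Lamp1 it turned with library totals (-0.064, blocked -0.064), upper-quartile factors (-0.026, blocked -0.021), a filter of 1 CPM in at least 4 libraries (-0.0018) and leaving out a library (-0.063 to 0.056, blocked -0.039 to 0.037). Gpnmb ranged from -0.40 to 0.15 (blocked -0.26 to 0.072) and Atp6v1e1 from -0.19 to 0.019. At these depths 3 counts correspond to at most 0.0602 CPM, below the level of all 41 genes in every library; counting error was not separated from the spread between libraries.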
